A study of Mus musculus with 4 samples.

Results

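The muscarinic and nicotinic acetylcholine receptor genes were described in hippocampal RNA of wild-type and Lsd1 knock-in mice. The 9 genes were named by symbol (Chrm1, Chrm2, Chrm3, Chrm4, Chrm5, Chrna4, Chrna5, Chrna7 and Chrnb2) and matched to their Ensembl gene IDs, and all 9 were among the 26328 genes listed in at least 1 sample. Messenger RNA of the hippocampus was sequenced in 2 samples of wild-type males (WT) and 2 samples of males of the Lsd1 knock-in line (KI). All were on the C57BL/6 strain, with no treatment named in the labels. In KI mice a serine of LSD1 that protein kinase C alpha phosphorylates is replaced by alanine in the germline, so every cell carries the change, and LSD1 (gene Kdm1a) is a histone demethylase that works with the corepressor CoREST. The age given for the mice of the study was 8 to 15 weeks, for the behavioral experiments. The comparison of KI with WT asked which transcripts differ when this site cannot be phosphorylated. Nothing in the labels says whether a sample was 1 mouse or a pool.

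Acetylcholine reaches the hippocampus mainly through axons of the medial septum, and it acts there on muscarinic receptors, which signal through G proteins, and on nicotinic receptors, which are ion channels built of 5 subunits. The receptors encoded by Chrm1, Chrm3 and Chrm5 couple to Gq-type proteins, which activate phospholipase C beta and close the M-type potassium channels. Those encoded by Chrm2 and Chrm4 couple to Gi/o-type proteins, which inhibit adenylyl cyclase and open inwardly rectifying potassium channels, and they often sit on axon terminals, where they lower transmitter release. Among the nicotinic subunits, Chrna7 forms channels by itself, whereas Chrna4 and Chrnb2 assemble into the high-affinity nicotine receptor, which Chrna5 can join as an accessory subunit.

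The values are RPKM, read numbers scaled to the exon length of the gene and to the depth of the library, so that levels of different genes can be compared per length. The depth behind the values, worked out from their whole-read steps, was 13414957 mapped reads in WT 1, 8827967 in WT 2, 14381252 in KI 1 and 14949756 in KI 2. Kdm1a itself was at 11.6 and 11.2 RPKM in WT and at 11 and 11.2 RPKM in KI. A point mutation does not show in these values, so Kdm1a does not check the genotype labels. Of 8 marker genes of hippocampal principal cells, 8 were above 0 in all samples, with Neurod6 between 114 and 129 RPKM. The library of KI 1 stood apart in Ttr, a choroid plexus transcript, with 51.3 RPKM against 8.13, 13.8 and 8.89 RPKM in WT 1, WT 2 and KI 2. Summed choroid plexus markers were 60.1 RPKM there, most of it Ttr, and 14 to 19.7 RPKM elsewhere. Of 4 such markers, 1 was higher in both KI samples (24.0% of all genes tested) and 0 lower (18.1%). It was Kl, at 4.87 and 5.14 RPKM in WT and at 7.05 and 6.72 RPKM in KI. Summed glial markers overlapped between the groups. The sums were 52.7 and 52.8 RPKM (WT) and 50.7 and 55 RPKM (KI) for microglia. They were 681 and 776 RPKM (WT) and 654 and 868 RPKM (KI) for oligodendrocytes, and 187 to 195 RPKM over all samples for astrocytes. Single markers went both ways within these sums. Of 4 markers each, 2 were higher and 1 lower in both KI samples for microglia and for astrocytes, and 0 of either for oligodendrocytes. The shares of all genes tested were 24.0% and 18.1%.

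Chrm1, the main muscarinic receptor of pyramidal cells, had the highest level of the 9 genes, between 36.9 and 40.5 RPKM, above 91.6% of the 18436 genes tested. Chrm3 followed at 22.6 to 23.3 RPKM, then Chrnb2 at 12.9 to 13.8 RPKM and Chrna7 at 9.92 to 12.4 RPKM. Chrm4 ranged from 6.92 to 8.92 RPKM and Chrna4 from 4.65 to 9.04 RPKM, and these ranges overlapped, with Chrm4 above Chrna4 in 3 of 4 samples. The lowest levels were those of Chrna5 (1.96 to 2.98 RPKM), Chrm2 (1.31 to 1.92 RPKM) and Chrm5 (0.69 to 1.19 RPKM). Apart from Chrm4 and Chrna4, no neighbours in this order had overlapping ranges over the 4 samples, and the higher gene of each such pair was higher in 4 of 4 samples.

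**Figure D1:**
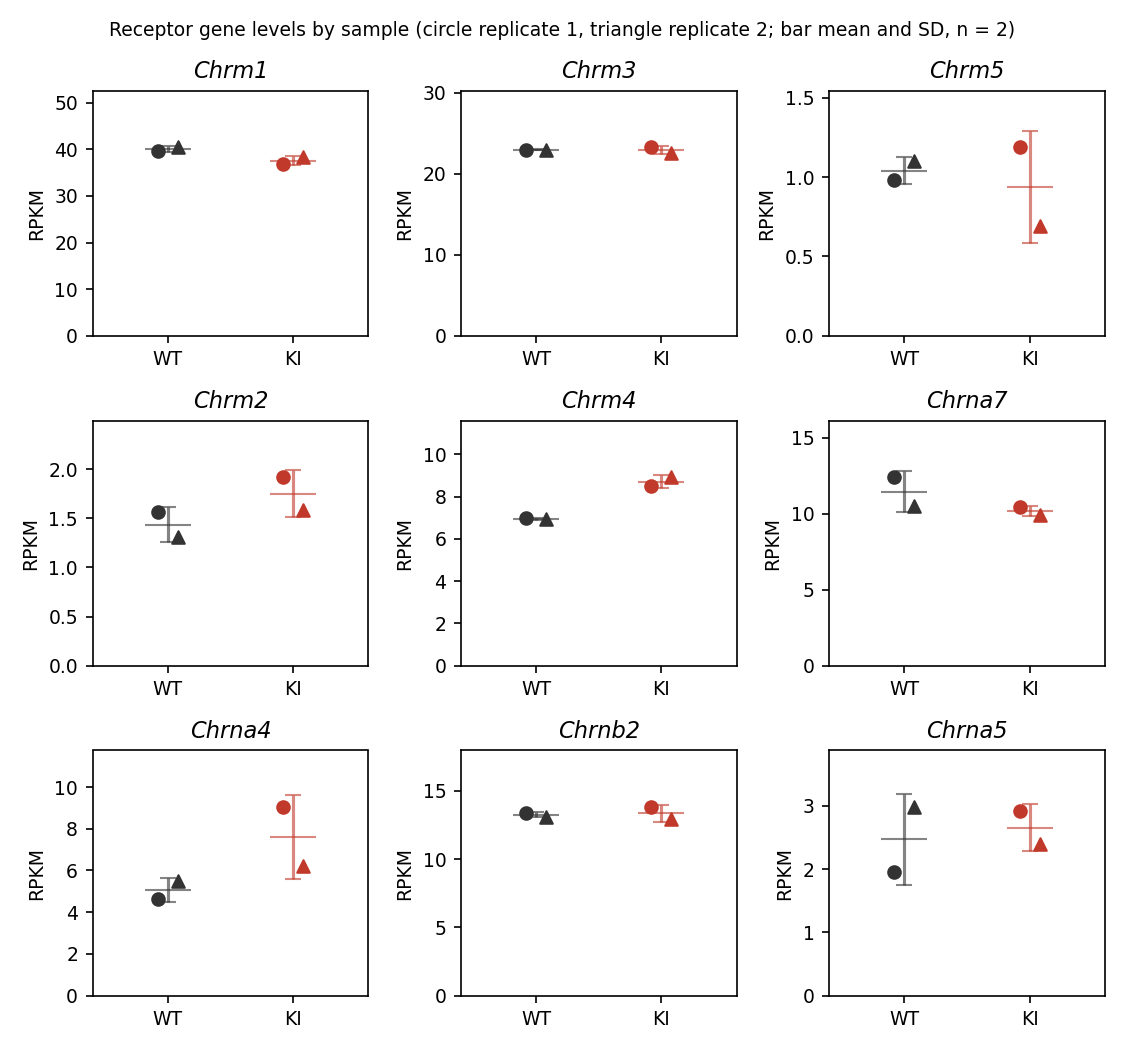
RPKM of each receptor gene (vertical axis, from 0, 1 panel per gene) in WT and KI samples, with circles for replicate 1, triangles for replicate 2, and a bar and whiskers for the mean and SD (n = 2). The KI points of Chrm4 (8.49 and 8.92 RPKM) and Chrna4 (9.04 and 6.2 RPKM) lie above both WT points, whereas the groups of Chrm3 and Chrnb2 overlap.

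Groups were compared with limma on log2(RPKM + 1). A gene was tested if 2 or more samples reached 0.5 RPKM, which left 18436 genes, and it was called if its adjusted p was under 0.1 and it changed by 1.2-fold or more. All 9 receptor genes passed the filter on low values. None was called by limma, as for all genes tested, of which 0 (0%) were called, with a smallest adjusted p of 0.197. Before adjustment, 2 of the 9 genes, Chrna4 and Chrm4, had a limma p under 0.05, both with higher values in KI, beside 1161 of 18436 genes (6.30%) that had such a p with higher values in KI. With lower values in KI, 0 of the 9 had a limma p under 0.05, beside 613 of all genes (3.33%). In 3 of the 9 genes (Chrm2, Chrm4 and Chrna4) each KI value exceeded each WT value, and in 2 (Chrm1 and Chrna7) each lay below. Over all genes tested these shares were 24.0% and 18.1%. With 2 samples against 2, the smallest p of an exact permutation test is 0.333. The median log2 fold change of the 9 genes was 0.01, and so was that of all genes tested.

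**Figure D2:**
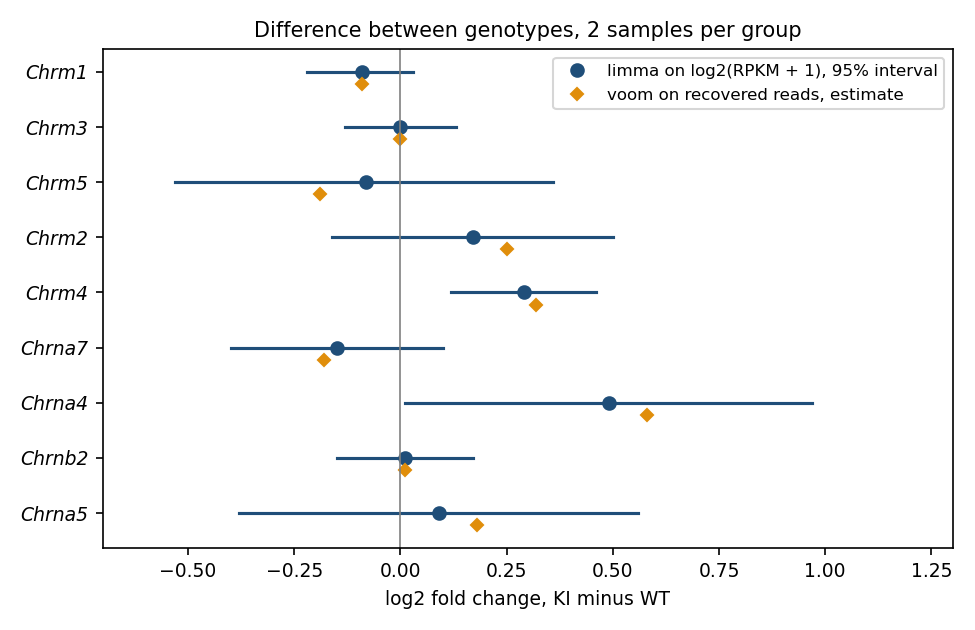
Log2 fold change (KI minus WT, horizontal axis) of each receptor gene, with the limma estimate on log2(RPKM + 1) as circles, its 95% interval as lines, and the estimate of limma's voom on the reads recovered from the RPKM steps as diamonds. The intervals of Chrm4 (0.12 to 0.46) and Chrna4 (0.01 to 0.97) lie above 0, and those of the other genes include 0.

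Of the receptors that couple to Gq-type proteins, Chrm1 had the lower values in KI, and the groups of Chrm3 and Chrm5 overlapped. Chrm1 (ENSMUSG00000032773, chr19:8663789-8683587 in GRCm38) was at 39.7 and 40.5 RPKM in WT and at 36.9 and 38.3 RPKM in KI. Both KI values were below both WT values, and the ratio of the means was 0.937. The difference was not called (log2 fold change -0.09, 95% interval -0.22 to 0.03, limma adjusted p = 0.59), on between 2317 and 3710 reads per sample. Chrm1 shares 329 exon bases with Gm22820, a non-coding RNA gene on the opposite strand listed at 16.1 to 21.3 RPKM. Reads from the shared bases cannot be told apart, since the library kit is not stated to keep strand.

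Chrm3 (ENSMUSG00000046159, chr13:9875486-10360847), which many pyramidal cells express beside Chrm1, was at 22.9 and 23.0 RPKM in WT and at 23.3 and 22.6 RPKM in KI. The groups overlapped, and the 95% interval of the log2 fold change ran from -0.13 to 0.13 (limma adjusted p = 0.998). It rested on 1440 to 2392 reads per sample. Chrm5 (ENSMUSG00000074939, chr2:112479171-112480769), a receptor best known from dopamine neurons of the midbrain, was at 0.982 and 1.10 RPKM in WT and at 1.19 and 0.69 RPKM in KI. It rested on only 17 to 30 reads per sample, its groups overlapped, and its interval was wide (-0.53 to 0.36, limma adjusted p = 0.912).

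Both Gi/o-coupled receptors had higher values in the KI samples. Chrm4 (ENSMUSG00000040495, chr2:91927249-91928688), which at hippocampal terminals lowers glutamate release, was at 6.98 and 6.92 RPKM in WT and at 8.49 and 8.92 RPKM in KI. The WT mean was 6.95 ± 0.0417 RPKM and the KI mean 8.7 ± 0.301 RPKM (SD, n = 2), so the gap between the groups was wider than the spread within either. The ratio of the means was 1.25 and the log2 fold change 0.29 (standard error 0.06). The limma p was 0.00807 before and 0.398 after adjustment (0.209 with limma's voom on recovered reads), and Chrm4 was therefore not called. Dropping 1 sample at a time gave log2 fold changes of 0.26 to 0.32. The WT values stood for 259 and 169 reads, the KI values for 338 and 369.

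Chrm2 (ENSMUSG00000045613, chr6:36388084-36528414), the autoreceptor of cholinergic terminals that interneurons also carry, was at 1.56 and 1.31 RPKM in WT and at 1.92 and 1.58 RPKM in KI. KI 2 was barely above WT 1, so the groups only just failed to overlap. The log2 fold change of 0.17 had a 95% interval of -0.16 to 0.50 (limma adjusted p = 0.697), on 70 to 167 reads per sample.

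The sum of the 5 muscarinic genes varied little, at 72.1 and 72.8 RPKM in WT and 71.8 and 72.0 RPKM in KI. Within that sum the Gi/o-coupled pair Chrm2 and Chrm4 made up 11.8% and 11.3% in WT and 14.5% and 14.6% in KI. The ratio of Chrm4 to Chrm1 was 0.176 and 0.171 in WT and 0.230 and 0.233 in KI. These sums and ratios were formed with the values known and were not tested.

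Among the 4 nicotinic members (Chrna4, Chrna5, Chrna7 and Chrnb2), Chrna4 had the widest difference between genotypes and also the widest spread between the KI samples. Chrna4 (ENSMUSG00000027577, chr2:181018380-181043546) was at 4.65 and 5.48 RPKM in WT and at 9.04 and 6.20 RPKM in KI. Neither KI value fell within the WT range, but KI 2 was closer to WT 2 than to KI 1. The WT mean was 5.07 ± 0.589 RPKM and the KI mean 7.62 ± 2.01 RPKM (SD, n = 2), a ratio of 1.5. The log2 fold change was 0.49 (standard error 0.18), with a limma p of 0.0477 before and 0.516 after adjustment (0.116 with voom). Without KI 1 it was 0.25, and without KI 2 it was 0.73, so its size rests on which KI sample is counted. The WT values stood for 308 and 239 reads, the KI values for 642 and 458.

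Chrnb2 (ENSMUSG00000027950, chr3:89746195-89764632), the partner subunit of Chrna4, was at 13.4 and 13.1 RPKM in WT and at 13.8 and 12.9 RPKM in KI. The groups overlapped and the 95% interval of the log2 fold change was -0.15 to 0.17 (limma adjusted p = 0.98). Of its 8380 exon bases in GENCODE M21, 1365 are shared with Adar on the opposite strand, at 25.5 to 32.1 RPKM. Reads from shared bases cannot be assigned with certainty. The exon length recovered for the values was 10768 bases, so the model counted differs, and its overlap with Adar was not worked out. The ratio of Chrna4 to Chrnb2 was 0.347 and 0.419 in WT and 0.655 and 0.482 in KI. This ratio was likewise formed with the values known and was not tested.

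Chrna7 (ENSMUSG00000030525, chr7:63098692-63212569), whose channels pass calcium and are rich on hippocampal interneurons, was at 12.4 and 10.5 RPKM in WT and at 10.4 and 9.92 RPKM in KI. Both KI values were the lower ones, KI 1 by a small margin below WT 2. The log2 fold change was -0.15 (95% interval -0.40 to 0.10, limma adjusted p = 0.65) and was -0.04 without WT 1, the sample with the highest value. Chrna5 (ENSMUSG00000035594, chr9:54980880-55007779) was at 1.96 and 2.98 RPKM in WT and at 2.92 and 2.39 RPKM in KI. Its lowest and highest values were both WT samples. The log2 fold change of 0.09 (95% interval -0.38 to 0.56, limma adjusted p = 0.914) lay between -0.12 and 0.30 when single samples were dropped.

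Values of some transcripts of other cell types and regions also lay apart between the groups, though no marker was called by limma. Their part in the receptor values was not tested. Counts of markers with each KI value above, or each below, the WT range stand beside 24.0% and 18.1% of all genes tested. In bulk tissue, fewer cells of a type and less RNA per cell cannot be told apart. Of 6 markers of the thalamus, where Chrna4 is known to be abundant, Prkcd and Tnnt1 lay higher in both KI samples, Tcf7l2 and Lef1 lay lower, and the summed level was 15.9 to 16.2 RPKM (WT) and 17.4 to 22.1 RPKM (KI). Prkcd, the largest part of the thalamus sum in every sample, was at 7.88 and 6.48 RPKM in WT and at 12.4 and 9.07 RPKM in KI. Its highest value was in KI 1, as for Chrna4. Slc17a6, the next largest part, overlapped between the groups, at 4.9 and 5.9 RPKM in WT and at 6.33 and 4.74 RPKM in KI. Of 6 markers of neocortex, 4 were higher in both KI samples and 0 were lower, and they summed to 46.5 to 49.6 RPKM (WT) and 51.8 to 53.8 RPKM (KI). For the striatum, where Chrm4 is abundant, 3 of 6 markers were higher and 2 lower, with sums of 26.2 to 26.9 RPKM (WT) and 28.9 to 29.5 RPKM (KI). Of 5 markers of the medial habenula, rich in nicotinic receptors, 1 was higher and 1 lower, with sums of 19.1 to 24.4 RPKM (WT) and 21.3 to 22.1 RPKM (KI), and its defining gene Pou4f1 was at 0 in WT 1 and KI 2.

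Interneurons carry Chrna4, Chrna7 and Chrm2, and of 7 interneuron markers 3 were higher (Slc32a1, Pvalb and Vip) and 2 lower (Sst and Npy) in both KI samples, beside the 24.0% and 18.1% of all genes. Their sum, most of it Sst and Npy, was 432 to 438 RPKM (WT) and 398 to 405 RPKM (KI). Of the 8 markers of hippocampal principal cells, 3 were lower in both KI samples (18.1% of all genes) and 0 higher (24.0%). The dentate gyrus marker Prox1 was at 17.3 and 16.9 RPKM in WT and at 10.2 and 13.1 RPKM in KI.

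**Figure D3:**
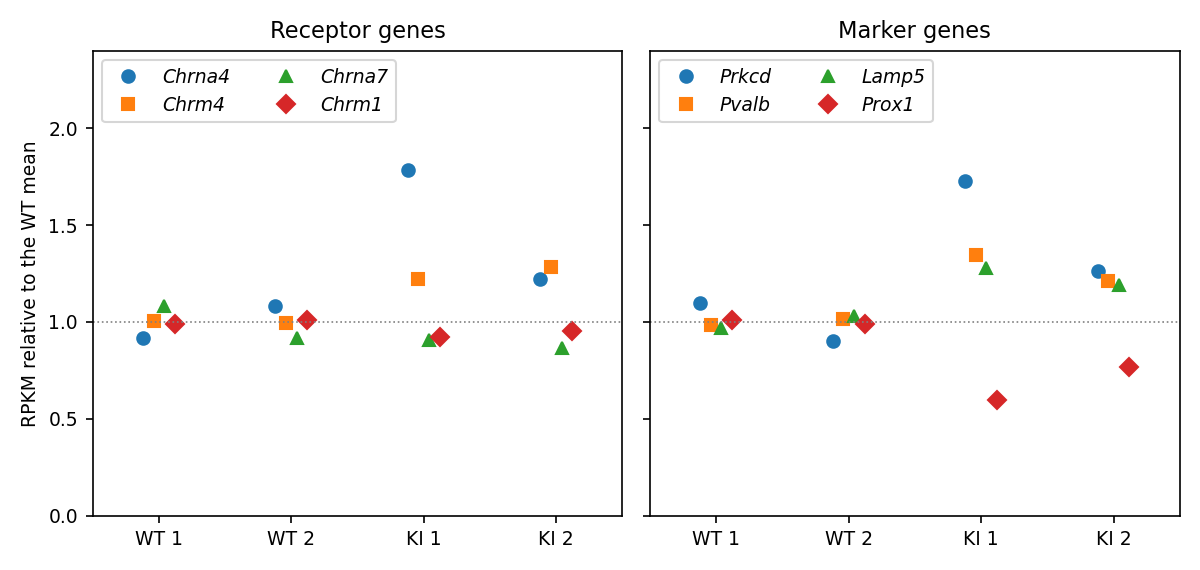
RPKM relative to the mean of the WT samples (vertical axis, from 0) in each sample, for 4 receptor genes on the left and 4 marker genes on the right, which were picked after their values were seen. Chrna4 (1.78 in KI 1 and 1.22 in KI 2) and the thalamus marker Prkcd (1.73 and 1.26) are both highest in KI 1, whereas Chrm4 is at 1.22 and 1.28, and markers not drawn (Tcf7l2 and Lef1 of the thalamus, Sst and Npy of interneurons) were lower in both KI samples.

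LSD1 acts at promoters, as part of complexes that sequence-specific factors such as REST bring to DNA. Promoter sequence is shown for Chrna4 and Chrm4, the genes with an unadjusted limma p under 0.05, and for Chrna7, which had no such p, as the only member whose window held an E-box. RefSeq (GRCm38.p6) windows of 250 bases before a start site were found for 8 of the 9 genes, and for Chrna5 at 2 start sites. Chrm1 had no entry. Each window was searched on both strands for GGGCGG (a GC box), for CACGTG (an E-box, the site of CLOCK and BMAL1) and for parts of the REST site, CAGCACC and GGACAG. The motifs were chosen after the expression values were known. The stretches below leave out bases that lie in annotated exons, run 5′ to 3′ on the strand of the gene, and carry GC boxes and E-boxes, read on either strand, in capitals. The Chrna4 stretch is chr2:181039306-181039427 (minus strand), that of Chrm4 chr2:91921939-91922188 (plus strand) and that of Chrna7 chr7:63212570-63212776 (minus strand).
Chrna4: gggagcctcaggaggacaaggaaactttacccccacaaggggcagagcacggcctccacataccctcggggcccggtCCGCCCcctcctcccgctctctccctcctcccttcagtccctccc
Chrm4: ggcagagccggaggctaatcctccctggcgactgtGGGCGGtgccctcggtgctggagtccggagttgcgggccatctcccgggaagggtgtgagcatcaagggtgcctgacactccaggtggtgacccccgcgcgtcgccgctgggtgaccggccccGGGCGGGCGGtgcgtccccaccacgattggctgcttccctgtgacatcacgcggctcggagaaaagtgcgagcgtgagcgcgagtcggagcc
Chrna7: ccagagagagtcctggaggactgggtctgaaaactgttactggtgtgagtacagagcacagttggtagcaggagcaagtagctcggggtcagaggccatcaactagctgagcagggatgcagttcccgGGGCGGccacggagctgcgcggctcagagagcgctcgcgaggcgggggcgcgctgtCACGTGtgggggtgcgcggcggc

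The full windows of Chrna4 and Chrm4 each held 3 GC boxes, of which 2 overlap in Chrm4, and those of Chrna7 and Chrm2 held 1 each. The downstream start site of Chrna5 had 4, whereas its upstream one and the windows of Chrm3, Chrm5 and Chrnb2 had 0. Of all 32851 windows, 32.7% held a GC box. Over all windows, 6.02% held an E-box. The letters CAGCACC were found in Chrm4 alone, as the reverse complement (5.73% of all windows), and GGACAG in Chrm2, Chrm3 and the downstream window of Chrna5 (18.7% of all windows). In no member did both parts occur in the same window. Neither the Chrm4 nor the Chrna4 window adjoins the outer end of the gene model given above, since that of Chrm4 lies upstream of its model and that of Chrna4 inside it. Those models are not always the ones counted. The values of Chrm4 rest on 2768 exon bases and those of Chrm5 on 1746, more than their coordinates above span. The bases just after the windows of Chrm4 and Chrm5 were not found in an annotated transcript of the gene.

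The other genes of cholinergic transmission were taken from a list of 41, of which 38 were listed in the files and 27 passed the filter on low values. None was called by limma, 2 of the 27 had an unadjusted limma p under 0.05, both with higher values in KI (6.30% of all genes), and the list's median log2 fold change was 0.01, as over all genes. Both genes with such a p were called, as higher in KI, when limma's voom was run on the reads recovered from the RPKM steps, an alternative chosen after the data had been seen that called 188 of the 18436 genes (1.02%) and 0 of the 9 receptor genes. Ache, the enzyme that breaks down acetylcholine, was at 12.8 and 12.9 RPKM in WT and at 16.5 and 16.1 RPKM in KI. The groups lay well apart, with a log2 fold change of 0.32, a limma adjusted p of 0.307 and 0.0495 with voom. Lynx1, a membrane-anchored protein that damps nicotinic receptors, was at 109 and 107 RPKM in WT and at 144 and 129 RPKM in KI, a log2 fold change of 0.33 with a limma adjusted p of 0.357 and 0.0171 with voom.

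Of the 7 chaperones and lynx-family modulators of nicotinic receptors, 4 had both KI values above both WT values (Lynx1, Lypd6b, Ly6h and Tmem35a) and 0 below, beside 24.0% and 18.1% of all genes tested, with a median log2 fold change of 0.12 in limma. Of the 14 G proteins and effectors of muscarinic receptors, 3 had both KI values above and 5 below, to be read against the same shares of all genes, 24.0% and 18.1%, and their limma log2 fold changes ran from -0.24 (Kcnj6, an inward rectifier subunit) to 0.23 (Plcb4, a phospholipase C beta). The remaining nicotinic subunits were scarce, and 2 of the 12 passed the filter. Chrna2, a subunit of interneurons at the border of the CA1 field, was at 0.486 and 0.546 RPKM in WT and at 0.473 and 0.531 RPKM in KI. Chrna3 was at 0.263 and 0.218 RPKM in WT (22 and 12 reads) and at 0.401 and 0.321 RPKM in KI (36 and 30 reads). Chrnb3 was at 0.065 and 0.0494 RPKM (4 and 2 reads) against 0.0758 and 0.16 RPKM (5 and 11 reads). Chrnb4 was at 0.0642 and 0 RPKM (3 and 0 reads) against 0.18 and 0.115 RPKM (9 and 6 reads). Chrna3, Chrnb3 and Chrnb4 were below the filter and were not tested, whereas Chrna2 was tested and not called (limma adjusted p = 0.985).

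Transcripts of cholinergic neurons themselves were near 0, and the reads given here are not scaled to depth. Chat, the enzyme that makes acetylcholine, had 0 and 2 reads (WT) and 6 and 2 reads (KI), where 0 reads in WT 1 allow a level of up to 0.0398 RPKM (3 reads, counting error only). Slc18a3, the vesicular acetylcholine transporter, was listed in 0 samples, which allows up to 0.141 RPKM in WT 2, the shallowest sample. Slc5a7, the choline transporter of cholinergic terminals, had 6 and 8 reads in WT (0.0864 and 0.175 RPKM). In KI it had 24 and 21 reads (0.322 and 0.271 RPKM), and it was below the filter.

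**Figure D4:**
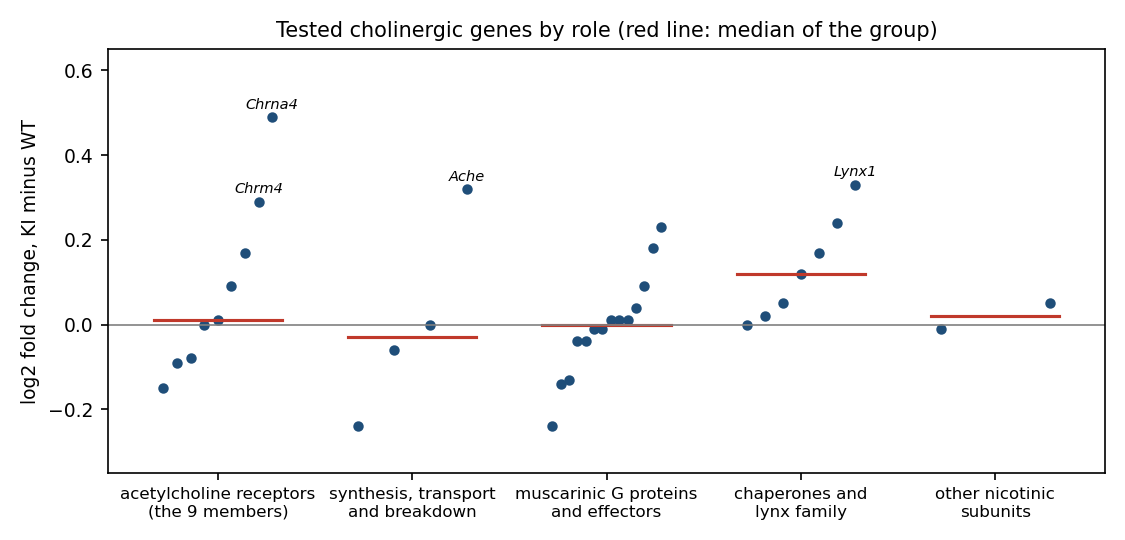
Log2 fold change (KI minus WT, limma on log2(RPKM + 1), vertical axis) of the 9 receptor genes and of the 27 tested genes of the cholinergic list by role, 1 point per gene, with a red line at the median of each group. Chrna4 (0.49), Lynx1 (0.33), Ache (0.32) and Chrm4 (0.29) are the highest points, and none of them was called by limma.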

How the data were processed

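Poly(A) RNA of hippocampus in 2 WT and 2 KI samples was sequenced as read pairs. Per the methods and labels, the authors used GSNAP for alignment to mm10, discarded pairs without a unique, proper alignment, and deposited RPKM values on Ensembl release 74 genes, 1 file per sample. The counting tool is not given in the sources used here. Genes not listed in a file were set to 0.

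Each value is a whole number of reads divided by exon length and depth. Depth came from the recurring value of 1 read (GENCODE M21 lengths, GRCm38, the same build as mm10), and a common exon length gave whole reads for 26328 of 26328 genes (relative tolerance 1e-06). Depth runs from 8827967 to 14949756 reads, and genes with few reads are least precise. Replicates are separate samples, and limma p-values rest on the spread between them, drawn toward the spread of genes of similar level. Whether it is a spread between single mice or between pools is not known.

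Genes were compared with limma (version 3.58.1, R version 4.3.3; pseudocount 1, mean-variance trend, Benjamini-Hochberg adjustment over all 18436 genes), whose code was tested on simulated data. Fold changes on the log2(RPKM + 1) scale understate those of low genes. edgeR, used by the authors, was not run here. Alternatives changed pseudocount, filter, scaling, trend, replicate block and samples, and voom on recovered reads was added later. Named are all 9 members, listed genes with an unadjusted p under 0.05 and at least 1.2-fold, and Chat, Slc18a3, Slc5a7, Ache, Chrna2, Chrna3, Chrnb3 and Chrnb4. Members and lists were chosen with earlier results of these data known. Other genes named were chosen after their values were seen. Tables were made with pandas 2.3.3, scipy 1.17.1 and numpy 2.4.6 under Python 3.11.15.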

Additional observations from a re-analysis of the deposited data

How the results depend on the processing

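The count of receptor genes called was 0 under every alternative that kept all samples. The receptor genes' log2 fold changes kept their direction in 109 of 117 refitted values. Changing only the filter, the trend or the replicate block cannot move the estimate, so those refits kept their direction by design. The 8 opposite values came from median centring or from leaving out a sample. The count over all genes tested was 0 in the main comparison, 1 with at least 10 reads in every sample, 20 without the mean-variance trend, 51 with the replicate block and at least 10 reads together, 188 with voom on recovered reads (added after the data were seen), and 0 with each sample left out in turn and under the other alternatives. Other cholinergic genes called were 2 with voom (Ache and Lynx1) and 0 otherwise. With the replicate block alone 0 genes were called, and although the labels share replicate numbers, they name nothing that a number marks, and deviations of same-numbered samples correlated at -0.0249 over 18436 genes, so the samples were not taken as paired. Leaving out samples in turn turned the direction of Chrm3 (-0.0215 to 0.0205), Chrm5 (-0.27 to 0.10), Chrna5 (-0.12 to 0.30) and Chrnb2 (-0.0369 to 0.0546), and Chrnb2 was -0.00782 with median centring. The cause was not tested. The fewest reads were those of Chrm5, 17 to 30 per sample.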

Other observations

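The reads recovered from the RPKM steps allow the replicates of a group to be set against counting error, as the ratio of replicate 1 to replicate 2 per depth with an exact (Clopper-Pearson) 95% interval that covers counting error only. Among the 9 receptor genes, the interval left out 1 for 2 in KI (Chrna4 and Chrnb2) and for 2 in WT (Chrna5 and Chrna7). The same share over all genes was not worked out, and the interval narrows with more reads. These counts therefore do not show that the receptor genes vary more than other genes. Chrna4 in KI was at 1.46 (1.29 to 1.65) and Chrnb2 in KI at 1.07 (1.01 to 1.14). Chrna7 in WT was at 1.18 (1.04 to 1.34) and Chrna5 in WT at 0.658 (0.468 to 0.925). For Chrm4 the ratio was 1.01 (0.828 to 1.23) in WT and 0.952 (0.819 to 1.11) in KI, both intervals including 1. So did those of Ache, at 0.995 (0.89 to 1.11) in WT and 1.03 (0.943 to 1.12) in KI, whereas Lynx1 differed between the KI samples, at 1.11 (1.08 to 1.15).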
